A study of Mus musculus with 10 samples.

Results

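The genes of sterol and fatty acid synthesis were followed in mammary tumours of mice by bulk RNA sequencing. The 31 genes were chosen by name: 17 form the sterol arm and 14 the fatty acid arm, out of 26063 genes in the deposited table. All 31 were found, each under 1 identifier, and all passed the filter on low counts. The donors were female FVB/N mice, 5 with the genotype 16IC/WT (16IC below) and 5 with the genotype EIC/WT (EIC below). Doxycycline (2 mg/ml) was given to both genotypes alike, and tumours were taken at end point and flash frozen. Neither the ages nor the full names behind 16IC and EIC are given in the labels, nor is the promoter that drives a transgene; the series title names the HER2 splice variant HER2∆16 and the ectoenzyme ENPP1. Each tumour carries its own animal name, so p-values measure the spread between animals, and tumour numbers within a genotype serve as names only. The questions put to the data were whether the sterol arm and the fatty acid arm differ in how they vary, and how each follows the milk genes of the same tumour.

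Cells make cholesterol from acetyl-CoA by the mevalonate pathway and fatty acids from acetyl-CoA by carboxylation and stepwise elongation. Both routes are controlled by membrane-bound transcription factors, the sterol regulatory element-binding proteins: SREBP2, encoded by Srebf2, acts mainly on sterol genes, and SREBP1, encoded by Srebf1, mainly on fatty acid genes. INSIG1 holds these factors in the endoplasmic reticulum when sterols are plentiful. In the lactating mammary gland the fatty acid route supplies milk fat, and the thioesterase encoded by Olah releases the medium-chain fatty acids typical of milk from fatty acid synthase.

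The promoter sequences of 5 members are shown because SREBPs act at such promoters, at sterol regulatory elements and commonly beside a bound NF-Y factor. They are the 200 bases before the RefSeq start of transcription on build GRCm38.p6, written along the gene's own strand. Hmgcs1 lies at chr13:119690151-119690350 (plus strand), Mvk at chr5:114444069-114444268 (plus), Mvd at chr8:122443423-122443622 (minus), Fasn at chr11:120824548-120824747 (minus) and Acly at chr11:100528001-100528200 (minus). Capitals mark 2 motifs on either strand: the sterol regulatory element TCACNCCA and the NF-Y box CCAAT, read as ATTGG on the other strand.
Hmgcs1: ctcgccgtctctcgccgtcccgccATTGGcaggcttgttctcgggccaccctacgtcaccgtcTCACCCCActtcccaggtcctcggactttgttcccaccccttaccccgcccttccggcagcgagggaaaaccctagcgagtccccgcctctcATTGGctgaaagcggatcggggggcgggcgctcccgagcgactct
Mvk: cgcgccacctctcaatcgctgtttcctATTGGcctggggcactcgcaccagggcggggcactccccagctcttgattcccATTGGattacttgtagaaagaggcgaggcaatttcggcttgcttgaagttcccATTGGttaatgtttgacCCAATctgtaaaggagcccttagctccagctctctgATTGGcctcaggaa
Mvd: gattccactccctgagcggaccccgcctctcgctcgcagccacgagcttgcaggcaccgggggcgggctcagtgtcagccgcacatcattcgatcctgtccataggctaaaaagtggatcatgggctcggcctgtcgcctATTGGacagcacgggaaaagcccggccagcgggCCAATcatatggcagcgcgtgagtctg
Fasn: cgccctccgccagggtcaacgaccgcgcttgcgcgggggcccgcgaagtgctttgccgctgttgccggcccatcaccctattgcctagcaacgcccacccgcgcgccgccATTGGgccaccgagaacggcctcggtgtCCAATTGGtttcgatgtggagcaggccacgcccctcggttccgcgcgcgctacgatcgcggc
Acly: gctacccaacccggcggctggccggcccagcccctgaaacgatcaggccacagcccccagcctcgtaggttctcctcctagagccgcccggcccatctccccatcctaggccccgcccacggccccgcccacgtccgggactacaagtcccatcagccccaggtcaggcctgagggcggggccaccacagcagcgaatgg
RefSeq promoter windows were matched for 24 of the 31 members, and 250 bases before each start were searched on both strands. The NF-Y box was found in 13 of 13 sterol genes and 6 of 11 fatty acid genes, against 37.5% of all genes with a promoter window. The element TCACNCCA was found in 3 of 13 sterol genes (Hmgcs1, Msmo1 and Srebf2) and 0 of 11 fatty acid genes, against 4.20% of all genes. The E-box CACGTG occurred in 3 of 13 sterol genes and 1 of 11 fatty acid genes, against 6.86% of all genes. The STAT5 motif TTCNNNGAA, which is known from milk protein promoters, was in 0 of 13 sterol and 0 of 11 fatty acid windows, against 8.13% of all genes. In the Hmgcs1 sequence the first capital stretch is an NF-Y box, the second the sterol regulatory element and the last another NF-Y box. Mvk holds 5 NF-Y boxes, Mvd 2 and Fasn 3, of which 2 overlap on opposite strands, and Acly has neither motif in these letters. These matches describe letters in a short window and not binding.

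Libraries held 14813940 to 16947400 counts, and the 31 genes together took 0.507% to 2.08% of them, most in 16IC 1 (2.08%) and 16IC 4 (1.49%). Levels below are CPM, counts scaled to a common library total, after TMM scaling. A log2 difference is 16IC over EIC from edgeR's quasi-likelihood test, adjusted by Benjamini-Hochberg over 14915 genes with a threshold of 0.05. In bulk tissue, fewer cells of a type and less RNA per cell cannot be told apart. The tissue label was checked against luminal epithelial markers: Epcam ran from 1559 to 2085 CPM in 16IC and from 1227 to 1721 CPM in EIC, whereas Krt19 was at 0 to 3.53 CPM in 16IC 1, 16IC 3 and 16IC 4 and at 2.79 CPM in EIC 2. In the other 6 tumours Krt19 reached 233 to 446 CPM.

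Scaled by the deposited gene length, as in the authors' FPKM, the 9 highest of the 31 genes all belonged to the fatty acid arm. Elovl6, Acaca, Acss2 and Acacb of the same arm ranked 22 or lower. That length is 10163 bases for Acss2 and 10787 bases for the sterol gene Lss. It need not be the length of a single transcript, so ranks between genes depend on it. By the authors' FPKM, Scd1, the desaturase that makes oleate, was the highest of the 31, with 837 ± 925 in 16IC and 258 ± 61.8 in EIC (SD, n = 5 each). Srebf1 followed with 482 ± 247 FPKM in 16IC and 237 ± 135 FPKM in EIC, and Scd2, a second stearoyl-CoA desaturase, with 264 ± 104 FPKM in 16IC and 186 ± 102 FPKM in EIC. The order of these 3 genes changed between tumours and is not firm. Scd1 was the highest of them in 16IC 1 (2374 FPKM), Srebf1 in 16IC 2 (288 FPKM) and Scd2 in 16IC 3 (277 FPKM). In the sterol arm Srebf2 was highest, with 32.2 ± 7.17 FPKM in 16IC and 29.8 ± 4.34 FPKM in EIC. Next came Sqle, squalene epoxidase, with 18.4 ± 4.63 FPKM in 16IC and 19.2 ± 5.69 FPKM in EIC, then Pmvk, phosphomevalonate kinase, with 17.8 ± 4.65 FPKM in 16IC and 13.5 ± 2.29 FPKM in EIC. The group ranges of mean and SD overlap for Sqle and Pmvk. Tumour by tumour, however, Sqle lay above Pmvk in all except 16IC 4 (15.0 against 19.9 FPKM). Within single tumours the FPKM of Srebf1 was 7.63 to 31.1 times that of Srebf2 in 16IC and 3.98 to 13.0 times in EIC. The lowest member was Fdps, farnesyl diphosphate synthase, at 0.306 ± 0.128 FPKM in 16IC and 0.364 ± 0.155 FPKM in EIC. Fdps shares 26.7% of its exon bases with the predicted gene Gm43738 on the same strand, so its count may be split and is uncertain.

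The fatty acid arm varied more between tumours than the sterol arm. The SD of log2 CPM over the 10 tumours was 0.37 at the median of the sterol arm and 0.84 at the median of the fatty acid arm, against 0.45 over all genes tested. The spread ran from 0.17 for Mvk, mevalonate kinase, to 0.79 for Mvd, mevalonate diphosphate decarboxylase, in the sterol arm. In the fatty acid arm it ran from 0.39 for Elovl6, which elongates palmitate, to 2.73 for Olah. A single tumour, 16IC 1, held the highest value of 11 of 17 sterol genes and 8 of 14 fatty acid genes, 61.3% of the members, against 10.6% of all genes tested. It held the lowest value of 0 of the 31. The lowest values fell mostly on 16IC 3 (7 members), EIC 2 (6) and EIC 1 (5).

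**Figure D1:**
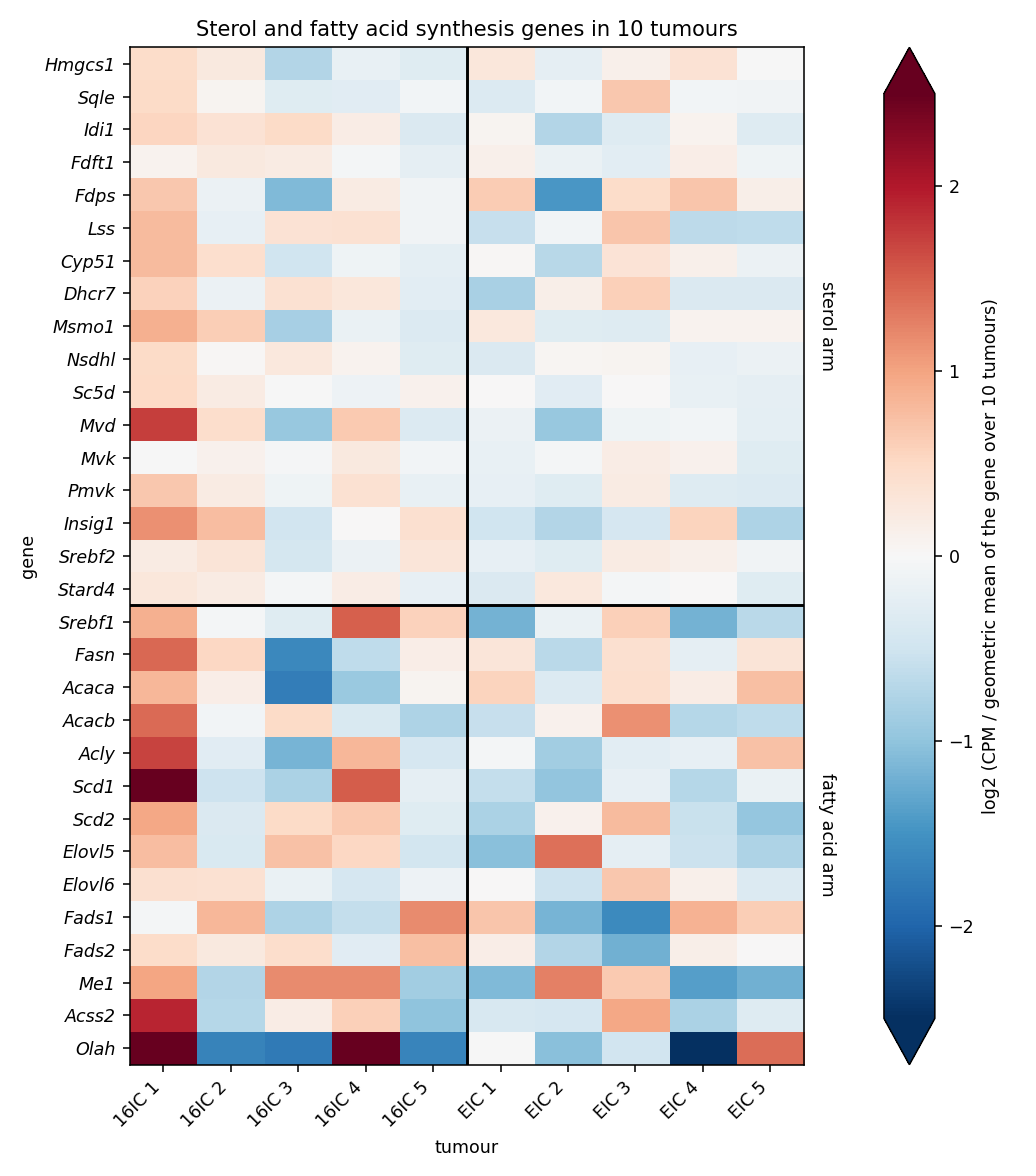
Heat map of the 31 genes (rows, sterol arm above the line, fatty acid arm below it) in the 10 tumours (columns, 16IC left of the line, EIC right). Colour gives log2 of CPM over the gene's geometric mean, clipped at the ends of the scale; 16IC 1 is highest for 19 of the 31 genes, and the fatty acid rows show the wider spread (median SD 0.84 against 0.37).

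Between genotypes, 26 of 31 members had a higher fitted mean in 16IC and 5 a lower one, but no member passed the test. EdgeR called 0 of 31 members, as it called 0% of all genes, and DESeq2 called 0 of 31, against 2.11% of all genes. At an unadjusted p under 0.05 stood 5 members, all higher in 16IC: Scd1, Srebf1 and Olah of the fatty acid arm and Idi1 and Insig1 of the sterol arm. That is 16.1% of the members, against 13.1% of all genes in either direction and 6.84% in the higher direction. The count rests on single tumours: it was 0 without 16IC 1, where 1485 of 15226 genes passed. It was 1 without EIC 2 (2595 of 15197 genes) and 2 without EIC 5 (1764 of 15196 genes). It was 3 without 16IC 2 (2242 of 15184 genes), EIC 1 (1446 of 15082) or EIC 4 (1555 of 15227). Without 16IC 1 and 16IC 4 it was 0, where 928 of 15608 genes passed. The median log2 difference was 0.19 in the sterol arm and 0.52 in the fatty acid arm, against -0.02 over all genes tested. In 0 of 31 members were the genotypes free of overlap, against 2.58% of all genes.

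Scd1 had 11665, 1263, 1049, 5198 and 1546 CPM in 16IC 1 to 5, against 1203, 917, 1578, 1104 and 1626 CPM in EIC 1 to 5. Only 16IC 1 and 16IC 4 lay above the EIC range, and the other 3 16IC tumours lay within it. The log2 difference was 1.69 (SE 0.65, 95% interval 0.25 to 3.12; adjusted p = 0.334 by edgeR and 0.113 by DESeq2). Without 16IC 1 it was 0.83. Scd2, whose sequence is close enough to that of Scd1 for reads to be shared, had 2225, 897, 1598, 1799 and 924 CPM in 16IC, against 661, 1232, 1977, 775 and 587 CPM in EIC. The groups overlapped (log2 0.51, SE 0.39, adjusted p = 0.574 by edgeR). The ratio of Scd1 to Scd2 by FPKM reached 5.91 in 16IC 1 and 3.26 in 16IC 4 and stayed between 0.740 and 1.89 in the other 16IC tumours, against 0.839 to 3.12 in EIC.

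Srebf1 had 3249, 1691, 1428, 4978 and 2633 CPM in 16IC, against 775, 1565, 2658, 774 and 1102 CPM in EIC. The highest values were again those of 16IC 4 and 16IC 1, and EIC 2 and EIC 3 lay inside the 16IC range. The log2 difference was 1.02 (SE 0.44, 95% interval 0.05 to 1.99; adjusted p = 0.362 by edgeR and 0.209 by DESeq2).

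Olah, the thioesterase of milk fat synthesis, showed the most extreme single-tumour pattern. It had 343, 1.61, 1.52, 39.1 and 1.64 CPM in 16IC, against 5.10, 2.49, 3.71, 0.375 and 13.6 CPM in EIC. 16IC 1 and 16IC 4 lay above all EIC tumours, and the other 3 16IC tumours lay below 4 of the 5 EIC tumours. The log2 difference of 3.93 (SE 1.62, adjusted p = 0.356 by edgeR) therefore rested on these 2 tumours, and it was -1.67 without them.

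The enzymes that build the fatty acid chain had smaller fitted differences than Scd1. Acly makes cytosolic acetyl-CoA from citrate, Acaca encodes the carboxylase that commits it to fatty acids, and Fasn encodes the synthase. Fasn had 969, 518, 118, 230.2 and 403 CPM in 16IC, against 447, 224, 478, 307 and 449 CPM in EIC. Thus 16IC 1 was the highest and 16IC 3 the lowest of all 10 tumours, and 16IC 4 stood below 4 of the 5 EIC tumours. The log2 difference was 0.23 (SE 0.48, adjusted p = 0.847 by edgeR), and it was -0.26 without 16IC 1. Acaca had 209, 132, 35.6, 62.0 and 123 CPM in 16IC, against 173, 93.3, 157, 134 and 198 CPM in EIC (log2 -0.43, SE 0.41, adjusted p = 0.654 by edgeR). Here 16IC 3 and 16IC 4 lay below every EIC tumour and 16IC 1 above them. The ratio of Scd1 to Fasn by FPKM was 27.3 in 16IC 1, 20.1 in 16IC 3 and 51.1 in 16IC 4, 5.52 in 16IC 2 and 8.68 in 16IC 5, against 6.10 to 9.27 in EIC. Acly ran from 147 CPM (16IC 3) to 1068 CPM (16IC 1) in 16IC, against 179.8 to 549.6 CPM in EIC (log2 0.53, SE 0.51). Of the other fatty acid genes, the log2 difference was 0.63 (SE 0.55) for Acss2, which makes acetyl-CoA from acetate, 0.58 (SE 0.28) for Fads2, the delta-6 desaturase, and 0.55 (SE 0.63) for Me1. It was 0.30 (SE 0.48) for Acacb, the carboxylase form tied to fatty acid oxidation, 0.12 (SE 0.54) for Fads1 and -0.00 (SE 0.24) for Elovl6, each with a 95% interval that includes 0.

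In the sterol arm Idi1, isopentenyl diphosphate isomerase, had 46.1, 40.7, 44.2, 36.2 and 24.5 CPM in 16IC, against 33.2, 19.0, 25.5, 33.4 and 25.5 CPM in EIC. Of the 16IC tumours 4 lay above all EIC tumours and 16IC 5 below 4 of the 5. The log2 difference was 0.49 (SE 0.21, 95% interval 0.02 to 0.95; adjusted p = 0.363 by edgeR and 0.301 by DESeq2). Idi1 shares 9.22% of its exon bases with Gm48574 on the opposite strand. Fdft1 shares 18.3% with Ctsb and Hmgcs1 12.1% with Gm48342, also on the opposite strand. The strand setting of the counts was not given, so whether these overlaps affect them is not known. Insig1 had 81.3, 63.2, 26.6, 37.4 and 48.8 CPM in 16IC, against 26.3, 22.1, 27.7, 54.2 and 21.6 CPM in EIC. Here 16IC 1 and 16IC 2 lay above every EIC tumour and the other 3 16IC tumours within the EIC range (log2 0.76, SE 0.34, adjusted p = 0.381 by edgeR).

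Mvd had 78.4, 31.8, 12.2, 36.8 and 18.5 CPM in 16IC, against 21.2, 12.2, 21.8, 22.3 and 19.99 CPM in EIC. Its log2 difference of 0.86 (SE 0.44, adjusted p = 0.416 by edgeR) was 0.35 without 16IC 1. Pmvk had 42.9, 30.9, 24.9, 35.2 and 23.6 CPM in 16IC, against 23.5, 22.0, 30.9, 21.5 and 21.4 CPM in EIC (log2 0.40, SE 0.19, adjusted p = 0.396 by edgeR). For both genes 16IC 1 was the highest of the 10 tumours and the groups overlapped.

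Srebf2 itself was among the steadiest members. It had 259.8, 283, 168, 204 and 281 CPM in 16IC, against 197, 183, 261, 248 and 214 CPM in EIC, and the groups overlapped fully (log2 0.12, 95% interval -0.28 to 0.51). Sqle had 147, 109.8, 85.0, 86.0 and 99.8 CPM in 16IC, against 82.7, 100.3, 167, 99.5 and 98.7 CPM in EIC (log2 -0.06, SE 0.22). Hmgcs1, which makes HMG-CoA, had 76.8, 66.1, 33.6, 49.1 and 45.1 CPM in 16IC, against 68.2, 48.1, 61.4, 72.5 and 55.3 CPM in EIC (log2 -0.17, SE 0.22). For both genes the 16IC and EIC tumours were interleaved. Of the 10 remaining sterol genes, Fdps had a lower fitted mean in 16IC. The other 9 (Fdft1, Lss, Cyp51, Dhcr7, Msmo1, Nsdhl, Sc5d, Mvk and Stard4) had log2 values of 0.09 to 0.43, each with a 95% interval that includes 0.

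**Figure D2:**
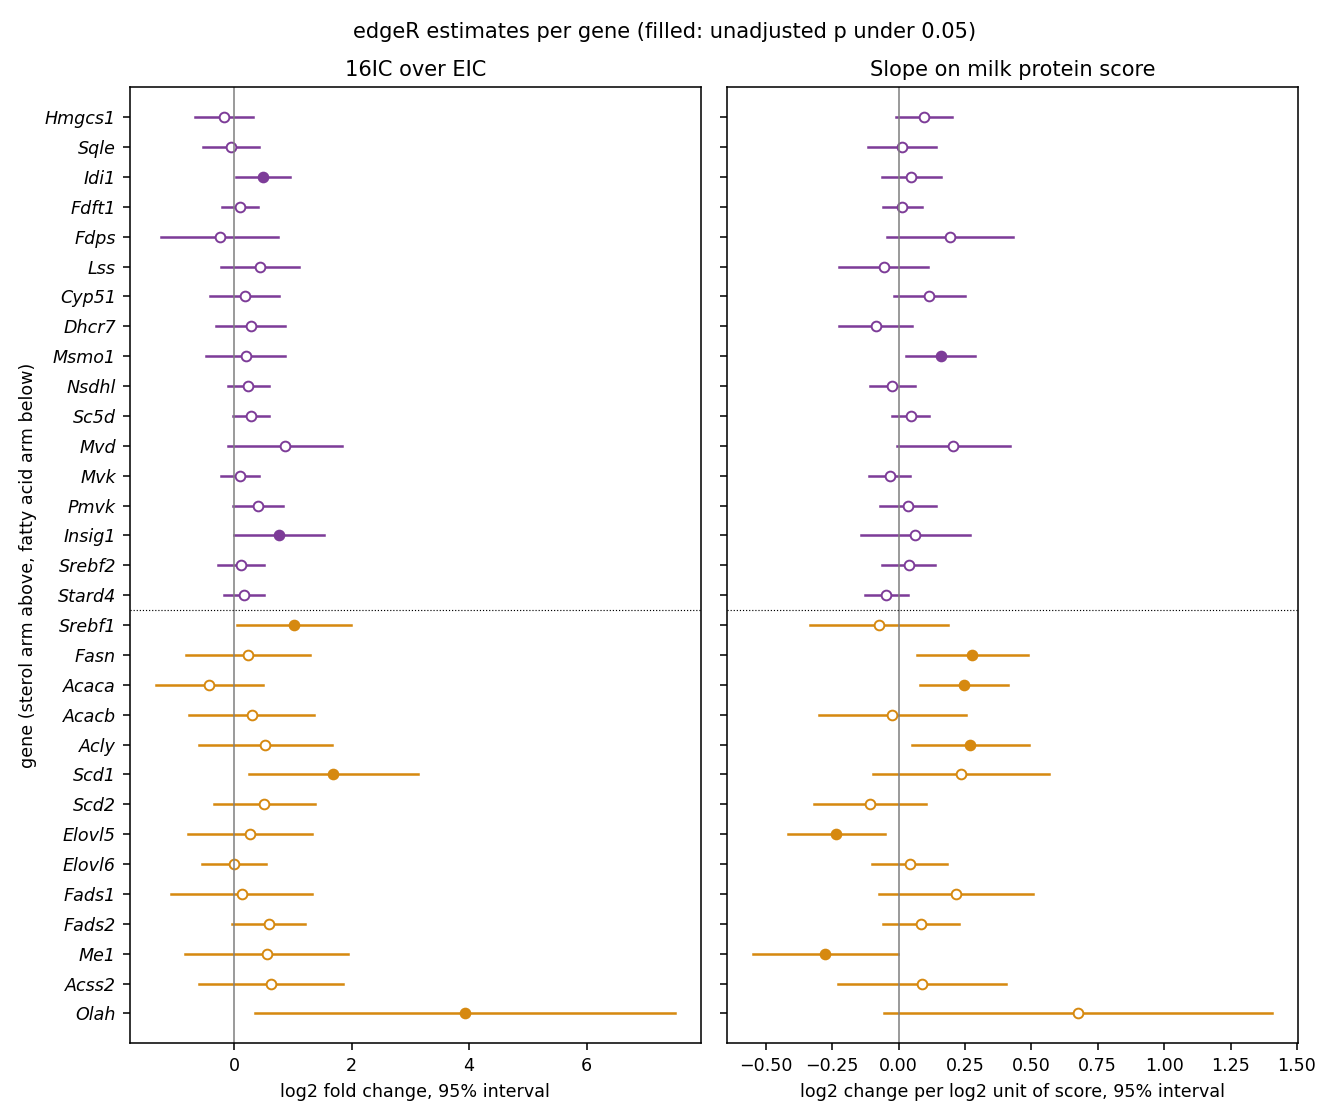
EdgeR estimates for the 31 genes with 95% intervals: log2 difference of 16IC over EIC (left) and log2 change per log2 unit of the milk protein score with genotype in the fit (right). Filled points have an unadjusted p under 0.05 (5 genes on the left, 6 on the right), and no estimate passed the adjusted threshold.

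To set the arms beside each other in each tumour, a score was taken as the mean log2 CPM of an arm's genes. The sterol score was 5.83, 5.45, 5.01, 5.32 and 5.09 in 16IC 1 to 5, against 5.09, 4.90, 5.35, 5.25 and 5.001 in EIC 1 to 5. It spanned 0.93 log2 units over the 10 tumours, and 16IC 1 and 16IC 2 lay above the EIC range. The fatty acid score was 8.79, 7.15, 7.001, 7.80 and 7.12 in 16IC, against 7.05, 7.05, 7.46, 6.74 and 7.24 in EIC. It spanned 2.05 log2 units, and here 16IC 1 and 16IC 4 lay above the EIC range.

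The sterol score averaged 5.34 ± 0.32 in 16IC and 5.12 ± 0.18 in EIC (SD, n = 5 each), a difference of 0.22. The fatty acid score averaged 7.57 ± 0.75 in 16IC and 7.11 ± 0.27 in EIC (SD, n = 5 each), a difference of 0.46. Both differences were smaller than the SD among 16IC tumours. Without 16IC 1 and 16IC 4 they were 0.07 for the sterol score and -0.02 for the fatty acid score. The fatty acid score exceeded the sterol score by 2.96 in 16IC 1 and 2.48 in 16IC 4, by 1.70 to 2.03 in the other 16IC tumours, and by 1.49 to 2.24 in EIC tumours. The scores had a Pearson r of 0.79 and a Spearman rho of 0.55 over the 10 tumours, and r was 0.21 over the 8 without 16IC 1 and 16IC 4. The points share their libraries, and thereby scaling and cell make-up.

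**Figure D3:**
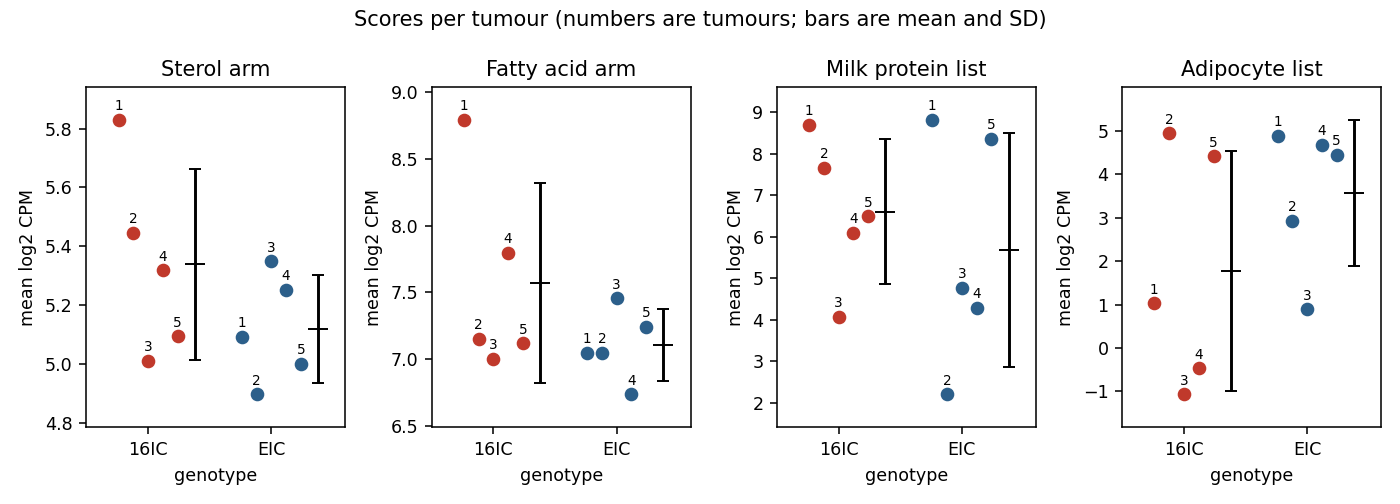
Scores (mean log2 CPM of a list) of the sterol arm, fatty acid arm, milk protein list and adipocyte list in the 5 16IC tumours (left in each panel) and 5 EIC tumours (right), with the tumour's number at each point and bars for mean and SD. The fatty acid score of 16IC 1 (8.79) stands highest, while the milk protein score is 8.69 in 16IC 1 and also reaches 8.81 in EIC 1 and 8.36 in EIC 5.

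The milk programme was measured by a score over 8 milk protein genes, none of them a member. It was 8.69, 7.66, 4.07, 6.09 and 6.49 in 16IC, against 8.81, 2.20, 4.76, 4.28 and 8.36 in EIC. High scores occurred in both genotypes, and the lowest was that of EIC 2. Over the 10 tumours the milk score had a Pearson r of 0.45 with the sterol score and 0.43 with the fatty acid score (Spearman rho 0.35 and 0.41). Without the 2 tumours farthest from the median milk score these r were 0.42 for the sterol score and 0.57 for the fatty acid score, and without 16IC 1 they were 0.24 for the sterol score and 0.19 for the fatty acid score. EIC 1 and EIC 5, with milk scores of 8.81 and 8.36, had fatty acid scores of 7.05 and 7.24, well under that of 16IC 1. By summed CPM of the 8 genes 16IC 1 was highest (52285, against 23354 in EIC 1 and 34150 in EIC 5). A score over 14 milk secretion genes was also highest in 16IC 1 (7.84, against 7.28 in EIC 1 and 7.15 in EIC 5). The summed CPM of those 14 genes was highest in EIC 1. The milk secretion score had a Pearson r of 0.51 with the sterol score and 0.63 with the fatty acid score. Without 16IC 1 these r were 0.16 and 0.35.

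Single genes were then tested for a slope on the milk score, with genotype as a covariate. EdgeR called 0 of 31 members, against 0.0335% of all genes, and DESeq2 called 2, Acaca and Fasn, against 3.83%. The share over all genes includes the genes of the score itself. Of the 5 genes that edgeR called, 3 were such milk protein genes, which follow their own mean by construction. At an unadjusted p under 0.05 stood 6 members, 19.4% of them, against 15.8% of all genes. This count was 3 without 16IC 3, where 1544 of 15192 genes passed, and 10 without EIC 4, where 3019 of 15227 did. The 6 members were 1 of 17 sterol genes (Msmo1) and 5 of 14 fatty acid genes. Of the latter, 3 had a positive slope (Acaca, Fasn, Acly) and 2 a negative one (Elovl5, Me1). Of all genes, 7.20% had such a positive slope and 8.62% such a negative one. The median slope was 0.04 in the sterol arm and 0.09 in the fatty acid arm, against -0.0025 over all genes tested.

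Acaca had the smallest p of the 31, with a slope of 0.25 log2 units per log2 unit of milk score (SE 0.07; adjusted p = 0.219 by edgeR and 0.0335 by DESeq2). Fasn had a slope of 0.28 (SE 0.09; adjusted p = 0.240 by edgeR and 0.0445 by DESeq2). Acly had a slope of 0.27 (SE 0.10; adjusted p = 0.264 by edgeR and 0.0869 by DESeq2). These 3 genes encode successive steps from citrate to palmitate, and each had a positive slope with any single tumour left out (0.18 to 0.32 for Acaca, 0.20 to 0.37 for Fasn, 0.19 to 0.35 for Acly). Of the desaturases, Scd1 had a slope of similar size with a wider error, 0.23 (SE 0.15, adjusted p = 0.450 by edgeR), which ran from 0.081 (without 16IC 1) to 0.33 with a tumour left out, and Scd2 had one of -0.11 (SE 0.09, adjusted p = 0.575 by edgeR). The slope of Olah was 0.68 (SE 0.33, adjusted p = 0.349 by edgeR), with 0.36 without 16IC 1. Srebf1 had a slope of -0.07 (SE 0.12, adjusted p = 0.767 by edgeR). In EIC 1, whose milk score was the highest of all, Srebf1 was at 775 CPM, next to the lowest of the 10 tumours.

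Elovl5, which elongates polyunsaturated fatty acids, had 314, 142, 307, 264 and 134 CPM in 16IC, against 88.9, 480.0, 158, 128 and 107 CPM in EIC. Its slope on the milk score was -0.23 (SE 0.08, adjusted p = 0.252 by edgeR), and the highest value was that of EIC 2, the tumour with the lowest milk score. Without EIC 2 the slope was -0.09. Me1, the cytosolic malic enzyme that supplies NADPH, had a slope of -0.28 (SE 0.12, adjusted p = 0.313 by edgeR). In the sterol arm Msmo1, a methylsterol oxidase, had 60.9, 50.5, 18.5, 29.2 and 25.9 CPM in 16IC, against 39.4, 26.7, 26.4, 34.8 and 34.7 CPM in EIC. Its slope was 0.16 (SE 0.06, adjusted p = 0.262 by edgeR), followed by Mvd at 0.20 (SE 0.09, adjusted p = 0.330 by edgeR) and Hmgcs1 at 0.10 (SE 0.05, adjusted p = 0.358 by edgeR).

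**Figure D4:**
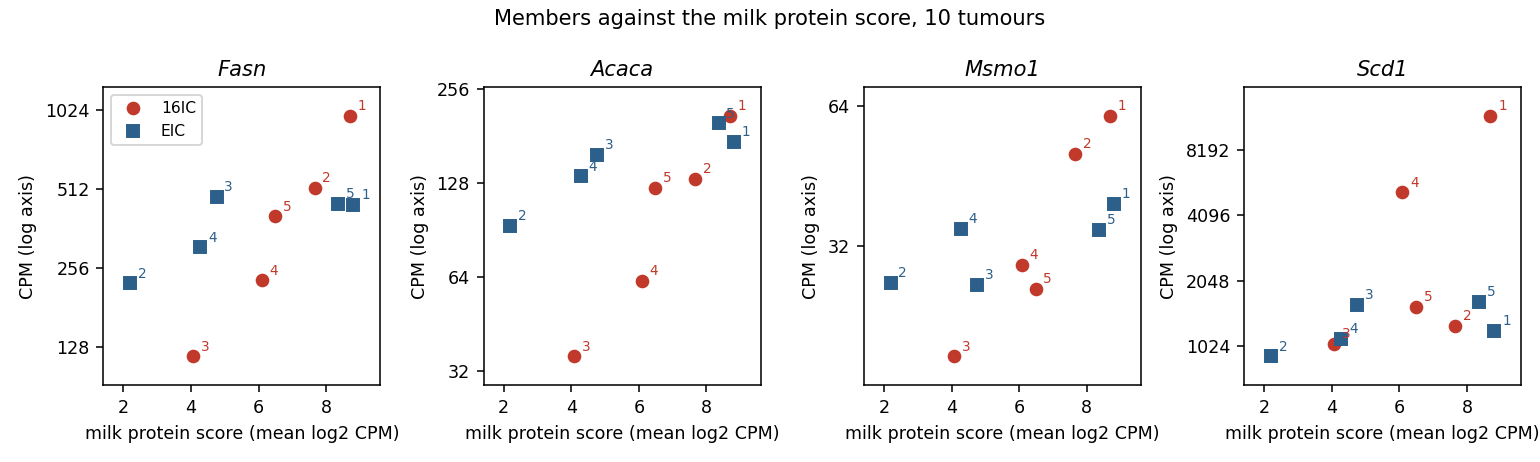
CPM (log axis) of Fasn, Acaca, Msmo1 and Scd1 against the milk protein score in 16IC tumours (circles) and EIC tumours (squares), numbered by tumour. In 16IC the Fasn values run from 118 CPM at a score of 4.07 to 969 CPM at 8.69, while in EIC they lie between 224 and 478 CPM over scores of 2.20 to 8.81.

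After these values were seen, the difference of the milk slope between genotypes was tested as well. EdgeR called 0 of 31 members, as it called 0% of all genes, and gave an adjusted p of 0.9996 for Fasn, the member with the smallest p. DESeq2 called 1 member, Fasn (adjusted p = 0.0359), against 0.0269% of all genes. At an unadjusted p under 0.05 stood 8 members, all with a steeper slope in 16IC, which is 25.8% of the members, against 2.74% of all genes in either direction and 1.73% with a steeper slope in 16IC. These were Fasn (difference of slopes 0.53, SE 0.11), Acaca (0.42, SE 0.10), Msmo1 (0.32, SE 0.08), Mvd (0.45, SE 0.15), Insig1 (0.42, SE 0.14), Cyp51 (0.24, SE 0.10), Hmgcs1 (0.23, SE 0.08) and Stard4 (0.16, SE 0.06). The count was 3 without 16IC 1, where 836 of 15226 genes passed, and 4 without 16IC 3, where 182 of 15192 did. Without 16IC 1 and 16IC 4 it was 3, where 1044 of 15608 genes passed. With each tumour left out in turn, the difference of slopes stayed positive for all 8 (lowest 0.13, Stard4). The 16IC tumours cover milk scores of 4.07 to 8.69 with 5 points, so each slope rests on few tumours. Markers of other cell types moved in the same test: 8 of 8 skeletal muscle markers had a steeper fitted slope in 16IC, 3 of them (37.5%) at an unadjusted p under 0.05, and so did 8 of 8 fibroblast and 5 of 5 endothelial markers, with 0 and 1 at that p. A steeper fitted slope in 16IC was found for 8225 of all 14915 genes. It was found for 9 of 10 adipocyte, 4 of 8 macrophage and 3 of 7 basal markers. Most luminal markers and proliferation genes went the other way, with 2 of 8 and 1 of 8 steeper, as did the T cell markers tested (0 of 2). Summed muscle markers were at 1.09 to 405 CPM in 16IC and 3.06 to 2454 CPM in EIC, with Myh4 at 0 CPM in 16IC 3 and EIC 3. The part of these cells in the slopes was not tested.

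A second pattern separated members of the same arm. Me1 had 661, 199, 757, 758 and 182 CPM in 16IC, against 154, 800.3, 520.1, 128 and 145 CPM in EIC. The tumours 16IC 1, 16IC 3, 16IC 4, EIC 2 and EIC 3 stood at 520.1 CPM or above, and the other 5 at 199 CPM or below. Scd2 was lowest in the same 5 tumours in which Me1 was low, at 587 to 924 CPM, and 1232 to 2225 CPM in the other 5. Fads1, the delta-5 desaturase, ran the other way, with 109, 200.3, 66.4, 74.4 and 258 CPM in 16IC, against 183, 50.3, 37.5, 207 and 172 CPM in EIC.

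The same split of tumours appeared in adipocyte markers, and other cell type markers moved with it. The adipocyte score, the mean log2 CPM of 10 markers, was 1.03, 4.93, -1.07, -0.47 and 4.41 in 16IC, against 4.88, 2.92, 0.89, 4.67 and 4.44 in EIC. It fell into a set of 5 tumours between 4.41 and 4.93 (16IC 2, 16IC 5, EIC 1, EIC 4 and EIC 5) and 5 tumours spread from -1.07 to 2.92. The summed level of the 10 markers was 25.7 to 599.9 CPM in 16IC and 44.2 to 574 CPM in EIC (exact permutation p = 0.421 between genotypes, adjusted p = 0.630 over 17 lists). Plin1, which coats the fat droplet, was at 0 CPM in 16IC 3 and 16IC 4, and the hormone gene Adipoq at 0 CPM in 16IC 4.

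The slope on the adipocyte score, with genotype as a covariate, was tested after these values were seen. EdgeR called 5 of 31 members (16.1%), against 10.3% of all genes, and DESeq2 called 6, against 16.3%. Of all genes, 5.56% rose with the score and 4.76% fell with it. Fads1 rose with the score (slope 0.40, SE 0.07, adjusted p = 0.0136 by edgeR). With it fell 4 members: Me1 (-0.44, SE 0.10, adjusted p = 0.0292), Scd2 (-0.25, SE 0.06, adjusted p = 0.0304), Dhcr7 (-0.16, SE 0.04, adjusted p = 0.0408) and Lss (-0.18, SE 0.05, adjusted p = 0.0425), all by edgeR. Dhcr7 encodes the last enzyme of cholesterol synthesis and Lss the cyclase that makes lanosterol. The direction of these 5 slopes held with each tumour left out, but the calls did not: edgeR called 0 to 2 sterol and 0 to 4 fatty acid members. Without 16IC 2, 16IC 4 or EIC 1 it called 0 sterol and 1 fatty acid member, Fads1, and without 16IC 5 none of the 5. Leaving out 16IC 3 ended the calls of Dhcr7 and Me1, EIC 3 those of Lss, Dhcr7 and Scd2, and EIC 4 or EIC 5 those of Lss and Dhcr7. Without 16IC 1 and 16IC 4 it called 0 of 31, and with the milk score as a further covariate Fads1 alone of the 5 was still called, beside Acss2. Of the 5 tumours with adipocyte scores of 2.92 or less, 4 were also those with Krt19 at or near 0 (16IC 1, 16IC 3, 16IC 4 and EIC 2). Krt19 is 1 of 8 luminal markers. Of these, 4 had a positive and 4 a negative fitted slope on the adipocyte score, and edgeR called 1, higher. The summed level of the 8 luminal markers was 3994 to 5976 CPM in 16IC and 4297 to 6557 CPM in EIC. The luminal score, their mean log2 CPM, had a Pearson r of 0.75 with the adipocyte score. It was 7.47 to 8.23 in the 4 tumours with Krt19 at or near 0 and 8.87 to 9.31 in the others. Over the 10 tumours the SD of log2 CPM among the 8 markers had a median of 0.46 and a maximum of 4.24. The r with this score cannot be told apart from a relation to Krt19, and a score without Krt19 was not tested. Pearson r with the luminal score was -0.89 for Me1, -0.76 for Scd2, -0.67 for Lss, -0.66 for Dhcr7 and 0.58 for Fads1. With the adipocyte score it was -0.875, -0.87, -0.83, -0.83 and 0.76 in the same order. Spearman rho was larger in size with the luminal score for Me1 (-0.92 against -0.70), Scd2 and Lss (each -0.88 against -0.77). For Dhcr7 and Fads1 it was smaller. Other lists also moved with the adipocyte score: edgeR called 6 of 8 macrophage, 3 of 8 fibroblast, 1 of 7 basal and 1 of 5 endothelial markers higher. At an unadjusted p under 0.05, 4 of 8 proliferation genes were lower, against 29.0% of all genes in either direction. Summed macrophage markers were at 253 to 605 CPM in 16IC and 330 to 616 CPM in EIC, and summed fibroblast markers at 389 to 3316 CPM in 16IC and 1714 to 6602 CPM in EIC. The part of adipocytes and of these other cells in the slopes was not tested.

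**Figure D5:**
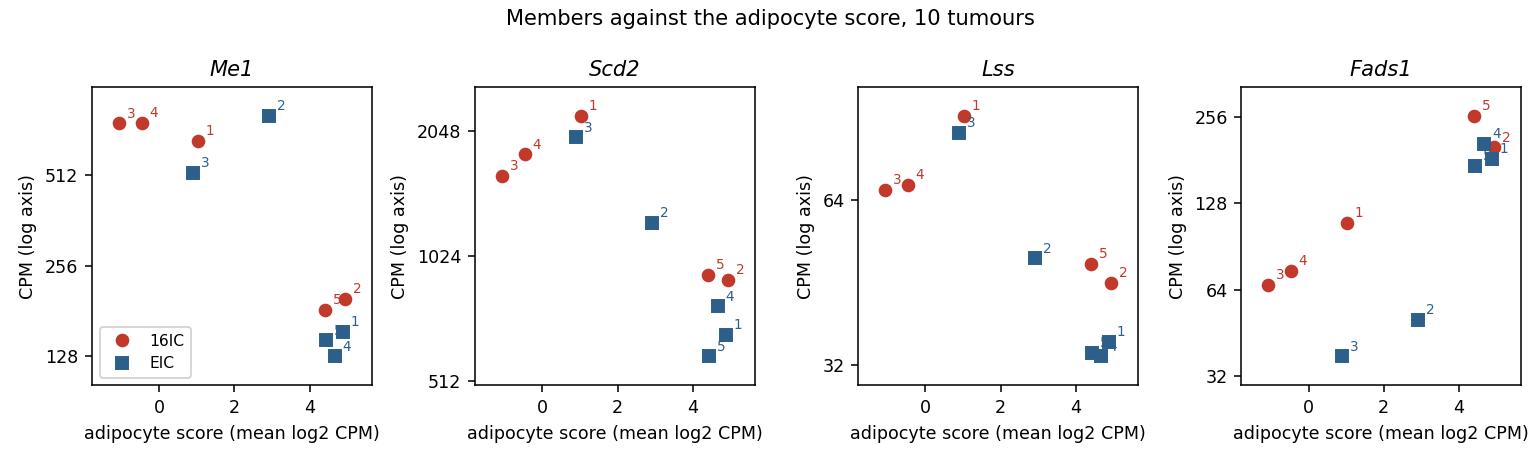
CPM (log axis) of Me1, Scd2, Lss and Fads1 against the adipocyte score in 16IC tumours (circles) and EIC tumours (squares), numbered by tumour. Me1 lies at 520.1 to 800.3 CPM in the 5 tumours with scores of -1.07 to 2.92 and at 128 to 199 CPM in the 5 with scores of 4.41 to 4.93, and Fads1 takes the opposite course.

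Pairs of members that moved together crossed the arms. Over the 10 tumours the median Pearson r of log2 CPM was 0.39 for the 136 pairs of sterol genes, 0.27 for the 91 pairs of fatty acid genes and 0.32 for the 238 pairs between the arms, against 0.00 for pairs of all genes tested. Pairs share library, scaling and cell make-up, and the members were picked as related genes. The closest pair of all joined the arms: Lss and Scd2 (r = 0.97), followed by Dhcr7 and Scd2 (r = 0.95) and, within the sterol arm, Lss and Dhcr7 (r = 0.93). Within the fatty acid arm the closest were Scd1 and Olah (r = 0.92), Fasn and Acaca (r = 0.91) and Elovl5 and Me1 (r = 0.90). Fads1 and Me1 ran most opposite (r = -0.85). In the sterol arm the lowest r was -0.34, and 0 of 136 pairs lay below -0.5, while 7 of 91 fatty acid pairs did.

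Other genes of the same pathways were taken from lists. Over all genes, 13.1% had an unadjusted edgeR p under 0.05 for genotype and 15.8% for the milk slope. DESeq2 called 2.11% of all genes for genotype and 3.83% for the milk slope. Of 11 further sterol pathway genes, edgeR called 0 for genotype and 0 for the milk slope, with 1 and 0 at an unadjusted p under 0.05, and DESeq2 called 0 in either test. Npc2, which carries cholesterol out of lysosomes, had 736, 215, 682, 498 and 192 CPM in 16IC, against 177 to 295 CPM in EIC (log2 0.92, adjusted p = 0.354 by edgeR). A list of 11 genes joined SREBP processing with other regulators of lipogenesis. Of these, edgeR also called 0 for genotype and 0 for the milk slope, with 2 and 1 at an unadjusted p under 0.05. DESeq2 called 1 of the 11 for the milk slope. This was Thrsp, a small nuclear protein that promotes lipogenesis, with 168, 49.9, 5.78, 85.9 and 9.79 CPM in 16IC, against 83.9, 2.79, 24.2, 17.8 and 129 CPM in EIC (slope 0.76; adjusted p = 0.176 by edgeR and 8.85e-06 by DESeq2). Of 18 further fatty acid and triglyceride genes, edgeR called 0 in either test, with 3 for genotype and 4 for the milk slope at an unadjusted p under 0.05. DESeq2 called 1 for the milk slope, Elovl1, an elongase of very long chains (slope 0.23, adjusted p = 0.0130), and the median log2 difference between genotypes was 0.13.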

How the data were processed

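RNA from 10 mammary tumours (5 16IC and 5 EIC) was extracted with the RNeasy Mini kit and made into libraries with NEBNext Ultra II, per the labels' protocols. The submitters' processing notes name Trimmomatic, STAR, HTSeq, edgeR and limma with the build GRCm38/mm10; as for versions, annotation release, strand setting and multiply mapped reads, these were not given in the sources used here. The authors deposited raw counts per gene, FPKM values and log2 fold changes with p-values in one table, and the fold changes were not used as results. Their normalized counts (a signal made by dividing counts by a size factor per library, per the values the authors deposited) were not used either. Tests used the deposited counts; the authors' FPKM served only to compare levels between genes.

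EdgeR 4.0.16 (limma 3.58.1, R 4.3.3) was run with filterByExpr at a minimum count of 10, which kept 14915 genes holding 99.8% of counts, TMM scaling and the robust quasi-likelihood test. The median biological coefficient of variation was 33.6%. DESeq2 1.42.0, other scalings and filters, covariates and left-out tumours were alternatives. Scores are mean log2 CPM with a prior count of 2. Marker sums were compared by a two-sided exact permutation test over 252 arrangements, whose smallest p is 0.00794. Scripts were tested on simulated data. Tables were handled with Python 3.11.15, pandas 2.3.3 and scipy 1.17.1.

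The members and lists were chosen with earlier results of these data known. Values in every tumour are given for members with an unadjusted edgeR p under 0.05 or a DESeq2 call for genotype, the 3 of each arm with the highest FPKM, the 3 of each arm with the smallest p for the milk slope, and Srebf1, Srebf2, Insig1 and Olah; from other lists, for genes past a threshold and at most 3 more. Me1 and Fads1 were added after their values were seen. The slope on the adipocyte score and the difference of milk slopes were also added then. P-values of members are adjusted over all genes tested.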

Additional observations from a re-analysis of the deposited data

Results flagged for a closer look

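In 6 of the 68 groups of 5 tumours checked, 1 tumour stood far from the other 4, where the gap to its nearest neighbour took more than 0.71 of the group's range. Chance gives about 1 in 20 such groups. All 6 lay in EIC, and values here are log2 CPM. EIC 3 was highest for Sqle (7.3877), Pmvk (4.956) and Acss2 (5.9249), which encode squalene epoxidase, phosphomevalonate kinase and the acetyl-CoA synthetase of the cytosol. EIC 2 was lowest for Mvd (3.6277) and for Fdps (-0.7404), whose count is low and uncertain. EIC 4 was highest for Insig1 (5.7636).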

How the results depend on the processing

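No paired analysis was possible because the tumours' numbers follow accession order and tie no 16IC tumour to an EIC tumour. With 5 tumours a group and single tumours far apart, differences below the intervals given were not detectable, and counts limit Fdps and Olah most. Leaving out 16IC 1 and 16IC 4 together, the adipocyte slope and the difference of milk slopes, with their alternatives, were chosen after seeing the data. The cause of the changes below was not tested.

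For genotype, DESeq2 called 356 genes and the fit with a luminal covariate 1, and 0 to 2 were called with 1 tumour left out (1 without EIC 1, 2 without EIC 2). For the milk slope, DESeq2 called 650 genes (2 fatty acid members), the adipocyte covariate gave 10, no genotype term 2, the milk secretion score 3, leaving out the 2 tumours farthest in milk score 0, leaving out 16IC 1 and 16IC 4 2, and 1 tumour left out 0 to 16. For the adipocyte slope, DESeq2 called 3018 genes, the milk covariate left 377 genes with 0 sterol members, and leaving out 16IC 1 and 16IC 4 left 305 genes with 0 sterol and 0 fatty acid members. With 1 tumour left out, 167 (without 16IC 2) to 2067 genes, 0 to 2 sterol and 0 to 4 fatty acid members were called. For the difference of milk slopes, DESeq2 called 7 genes, 1 of them a fatty acid member.

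Directions turned for small estimates and for Olah, whose genotype difference of 3.93 was the largest of the 31 members. For genotype, Olah was -1.67, Msmo1 -0.035 and Fasn -0.14 without 16IC 1 and 16IC 4; Msmo1 was -0.039 and Fasn -0.25 with the milk covariate; Fasn was -0.052 by limma-trend; Elovl5 was -0.17 with the adipocyte and -0.19 with the luminal covariate. With 1 tumour left out, genotype estimates ran from -0.060 to 0.36 for Msmo1, -0.26 to 0.48 for Fasn and -0.20 to 0.14 for Sqle. The milk slope of Srebf1 was 0.0079 with the adipocyte covariate, 0.013 with the luminal covariate, 0.034 with no genotype term and 0.0034 without the 2 farthest tumours, where Idi1 was -0.015; Sqle was -0.025 without 16IC 1 and 16IC 4. With 1 tumour left out, milk slopes ran from -0.0050 to 0.14 for Insig1 and -0.025 to 0.067 for Sqle.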

Other observations

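Among genes of fatty acid uptake, Cd36, a fatty acid transporter of the cell surface, had 991, 38.7, 21.3, 821 and 34.2 CPM in 16IC, against 51.1, 30.4, 11.1, 48.1 and 34.3 CPM in EIC. It was high in 16IC 1 and 16IC 4, the tumours with the highest Scd1 and Olah, and the other 3 16IC tumours lay within the EIC range (log2 3.45; adjusted p = 0.290 by edgeR and 0.0130 by DESeq2). The casein gene Csn1s2b had 357, 4.58, 3.89, 90.9 and 2.93 CPM in 16IC, against 2.43, 0, 0.240, 0.438 and 0.542 CPM in EIC (log2 6.95, adjusted p = 0.249 by edgeR and 7.79e-04 by DESeq2). All 16IC tumours lay above all EIC tumours for Csn1s2b, and 16IC 1 and 16IC 4 lay highest. Cd36 and Csn1s2b were picked for these values.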
